A study of Sus scrofa with 12 samples.

Results

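The genes described here make and sense prostaglandin E2 and its relatives in the striatum of newborn piglets. They were chosen by name from a list of 10 synthase and receptor genes: those that the authors' deposited table names are the members. The table names 7 of the 10, out of 25880 genes in the count table, namely the cyclooxygenases PTGS1 and PTGS2, the synthases PTGES and PTGES2, and the receptors PTGER2, PTGER3 and PTGER4. PTGES3, PTGDS and PTGER1 are not named there, and their rows were found through a reference table of pig gene names. Tissue labelled as striatum came from 12 piglets in a sham group and a DHCA group of 6 each, sequenced as bulk RNA. DHCA stands for deep hypothermic circulatory arrest, which the sample labels call cardiac arrest. Under 4% isoflurane, these animals went on cardiopulmonary bypass through an opened sternum, were cooled to 18 °C, had their circulation stopped for 30 min, were warmed back to 37 °C on bypass and then recovered for 6 h. Of the sham piglets the labels name the same anaesthetic only, with no time of collection. Bypass, cooling, arrest and recovery therefore differ between the groups together and cannot be told apart.

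Prostaglandins are short-lived lipid signals made from arachidonic acid, which phospholipases cut out of membranes. A cyclooxygenase, PTGS1 or PTGS2, turns it into the unstable prostaglandin H2, and terminal synthases then make prostaglandin E2 (PTGES, PTGES2, PTGES3), D2 (PTGDS) and others. PTGS1 is the steadily expressed form, while PTGS2 is an inducible early gene, which in brain responds to synaptic activity, cytokines and injury and is the main target of anti-inflammatory drugs. Prostaglandin E2 acts on receptors that raise cyclic AMP (PTGER2, PTGER4), lower it (PTGER3) or raise calcium (PTGER1).

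Totals ranged from 1377809 counts in Sham 5 and 2515816 in Sham 1 to 12933536 in Sham 6, with the other 9 libraries between 5434652 and 12637277. The library labelled Sham 4 went against its tissue label: 9 markers of striatal spiny projection neurons summed to 115 CPM (counts relative to library size, TMM-scaled) there against 2246 to 5800 CPM in the other 11. Markers of cortical and other glutamatergic neurons, 8 genes, summed to 1182 CPM in Sham 4 and to 23.4 to 81.4 CPM elsewhere. Sham 1, Sham 4 and Sham 5 were therefore also left out together, and these values stand beside the results they touch. No unplaced scaffold gene had a read in any of the 12 libraries (0 of 1521 genes). PTGDS (ENSSSCG00000040080), the synthase of prostaglandin D2, lies on such a scaffold. Its 0 counts thus carry no information on its level.

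Compared per length, the sham medians of the synthase genes lay above those of the receptor genes. RPKM here is TMM-scaled CPM divided by the summed exon length in kb. PTGES3, a co-chaperone also known as p23 that has prostaglandin E synthase activity, had a sham median of 44.2 RPKM (22.8 to 58.9). PTGES2, a membrane-associated synthase, followed at 4.00 RPKM (2.36 to 4.74) and PTGS1 at 2.00 RPKM (1.71 to 2.34). PTGES, the microsomal synthase that is often induced together with PTGS2, stood at 1.42 RPKM (0 to 1.71). The sham medians of PTGS2, PTGER3, PTGER4 and PTGER2 were 0.632, 0.597, 0.359 and 0.0914 RPKM. PTGES3 and PTGES2 each lay wholly above the next gene in this order, and PTGS1 met PTGES at 1.71 RPKM. Below that, each gene's sham range overlapped that of its neighbour, so these places are not separated beyond the spread. In DHCA, PTGS2 moved from the fifth place to the third, with a median of 3.03 RPKM (1.33 to 4.42), above PTGS1 at 1.92 RPKM (1.16 to 3.83) and just under PTGES2 at 3.23 RPKM (1.85 to 3.75). The other 7 genes with counts kept their order among themselves.

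**Figure D1:**
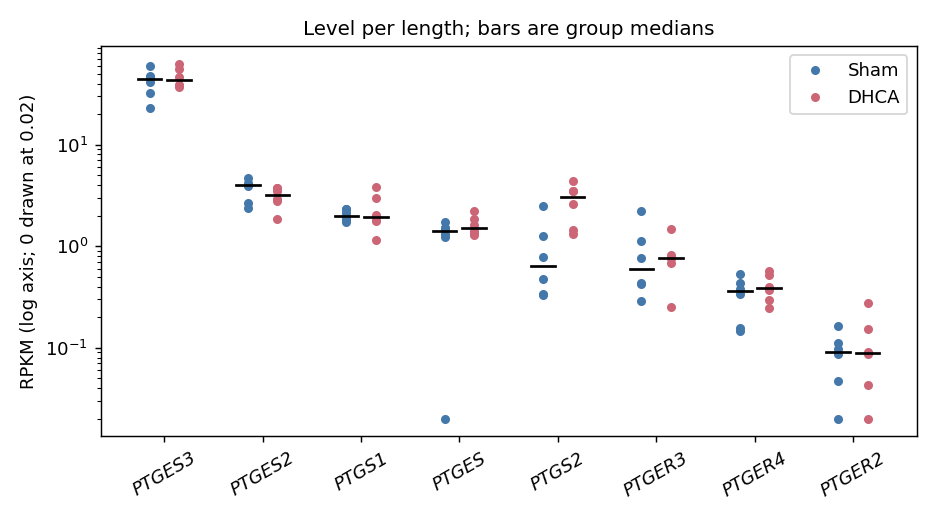
Level of each of the 8 genes with counts in RPKM (log axis), 1 point per library, with bars at the group medians; values of 0 are drawn at 0.02. PTGS2 is the gene whose group medians lie furthest apart, 0.632 in sham and 3.03 in DHCA, and the ranges of both groups overlap for all 8 genes.

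PTGS2 had the largest difference between DHCA and sham among the members tested, and it did not pass the test across all genes. PTGS2 (ENSSSCG00000015579; Sscrofa11.1 chromosome 9, 127848603 to 127859287, minus strand, 10 exonic blocks) was at 6.98, 13.8, 1.89, 4.41, 2.66 and 1.83 CPM in Sham 1 to Sham 6. In DHCA 1 to DHCA 6 it was at 7.45, 24.7, 19.4, 14.5, 8.06 and 19.4 CPM. In 5 of 6 sham libraries PTGS2 was below every DHCA library, and only Sham 2 reached into the DHCA range, where it lay above DHCA 1 and DHCA 5. The group means were 5.26 ± 4.62 and 15.6 ± 6.87 CPM (SD, n = 6 per group). The edgeR quasi-likelihood test gave a log2 fold change of 1.51 (SE 0.49, 95% interval 0.45 to 2.57), a 2.85-fold higher level, with an adjusted p of 0.375. By p it ranked 313 among 14004 tested genes.

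Adjusted over all genes, 0 of the 5 tested members were called by edgeR, and 26 of the 14004 genes (0.186%) were. At an unadjusted p under 0.05 there was 1 of the 5, PTGS2, and 7.9% of all tested genes. DESeq2 called none of the 5 and 1.24% of genes with an adjusted p. Limma-voom with sample quality weights called PTGS2 alone of the 5 and 1.48% of all genes it tested. None of the 5 had groups without overlap, a separation seen in 0.993% of tested genes. PTGER2 and PTGER3 did not pass the filter on low counts.

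The size of the PTGS2 difference rested on Sham 2 more than on any other library. Without Sham 2 the log2 fold change was 2.22 (SE 0.44, edgeR adjusted p = 0.0517). Leaving out any other single library gave 1.30 to 1.66, with adjusted p from 0.383 to 0.674. Sham 2 was a deep library with 166 PTGS2 counts, so its value has a counting interval of 11.8 to 16.1 CPM (95%, exact Poisson), which lies above the highest other sham value. In Sham 5 the 4 PTGS2 counts allow 0.726 to 6.82 CPM. These intervals cover counting error only, not the spread between animals. The reads carry no molecular identifiers, so duplicated reads are not accounted for either. Without Sham 1, Sham 4 and Sham 5 the log2 fold change was 1.36 (SE 0.66, adjusted p = 0.950). With the same libraries left out, PTGES was at 0.036 (SE 0.28), PTGES2 at -0.17 (SE 0.24) and PTGER4 at 0.33 (SE 0.40). Limma-voom with sample quality weights estimated 2.25 (SE 0.46, adjusted p = 0.0232), while the DESeq2 Wald test gave 1.53 (SE 0.51, adjusted p = 0.130). Limma-voom gave Sham 1 and Sham 2, highest in PTGS2 among sham, weights of 0.19 and 0.49. Sham 3 and Sham 6, the lowest, had 2.28 and 2.81. In DHCA the largest weight, 3.29, fell on DHCA 1, the lowest in PTGS2, and the smallest, 0.41, on DHCA 3. The part of these weights in the estimate was not tested.

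In the authors' deposited table PTGS2 has a log2 fold change of 1.82 (standard error 0.38, adjusted p = 0.000688), and 1.29% of its genes with an adjusted p are under 0.05. That table also gives PTGS2 a mean normalized signal of 146, which is 2.19 times the mean over the 12 libraries used here, 66.7 counts scaled by DESeq2 size factors. For all tested genes this ratio had a median of 1.32 and a 95th percentile of 1.52, and 0.05% of them had a higher ratio than PTGS2. For PTGER4 it was 1.82, and for PTGS1 1.36. The table also gives 86 genes a mean above 0 that have no count in the 12 libraries. The deposited means therefore did not come from the counts of these 12 libraries alone. Which counts gave the deposited adjusted p of PTGS2 is not known here, so it cannot be read as a test on these 12 libraries alone.

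**Figure D2:**
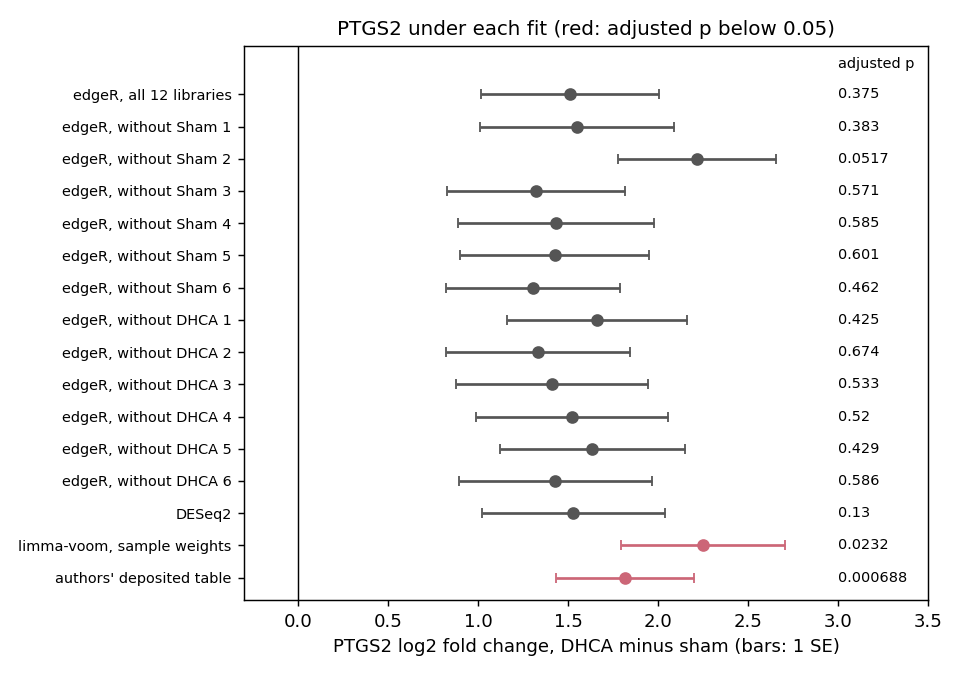
PTGS2 log2 fold change (DHCA minus sham, bars 1 SE) with all 12 libraries, without each library in turn, with 2 other tools and as the authors' deposited table gives it. All values are positive; leaving out Sham 2 gives 2.22, and the adjusted p is below 0.05 only for limma-voom with sample weights and in the deposited table (both red).

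PTGS1 did not show the difference that PTGS2 did. PTGS1 (ENSSSCG00000005533, chromosome 1, 262456220 to 262484227, plus strand) ranged from 7.96 to 10.9 CPM in sham with a median of 9.32, and from 5.38 to 17.8 CPM in DHCA with a median of 8.93. Its log2 fold change was 0.16 (SE 0.26, 95% interval -0.39 to 0.71, edgeR adjusted p = 0.883). DHCA 5 and DHCA 4, at 17.8 and 13.8 CPM, were above all sham libraries, and without DHCA 5 the estimate was -0.066. Both genes had the same summed count over the 12 libraries, 916, split into 421 in sham and 495 in DHCA for PTGS1 and into 258 and 658 for PTGS2.

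The ratio of PTGS2 to PTGS1 counts needs no scaling between libraries. With 0.5 added to each count it was 0.649, 1.61, 0.195, 0.558, 0.333 and 0.173 in Sham 1 to Sham 6, and 0.793, 2.97, 3.56, 1.05, 0.455 and 2.28 in DHCA 1 to DHCA 6. PTGS2 outnumbered PTGS1 in 4 of 6 DHCA libraries and in 1 of 6 sham libraries, Sham 2. DHCA 2, DHCA 3 and DHCA 6 were above all sham libraries. DHCA 3, with the highest ratio, also had the highest sum of oligodendrocyte markers, 64777.5 CPM, against 4502 to 33176 CPM in the other libraries. The part of this tissue make-up in the ratio was not tested. DHCA 1, DHCA 4 and DHCA 5 had ratios within the sham range. The mean log2 ratio was -1.21 ± 1.21 in sham and 0.53 ± 1.18 in DHCA (SD, n = 6 each), a difference of 1.74 (exact 2-sided permutation test over all assignments to groups of 6, p = 0.0368, smallest possible p = 0.00216). The direction of PTGS2 was known when this ratio was chosen. Leaving out 1 library at a time gave differences of 1.48 to 2.12 with exact permutation p from 0.0173 to 0.0693, and 6 of the 12 fell under 0.05. Those that did not were without Sham 3 (0.0693), Sham 5 (0.0628), Sham 6 (0.0693), DHCA 2 (0.0671), DHCA 3 (0.0693) or DHCA 6 (0.0649), and the difference without Sham 1, Sham 4 and Sham 5 was 1.93 (p = 0.0833, exact permutation).

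**Figure D3:**
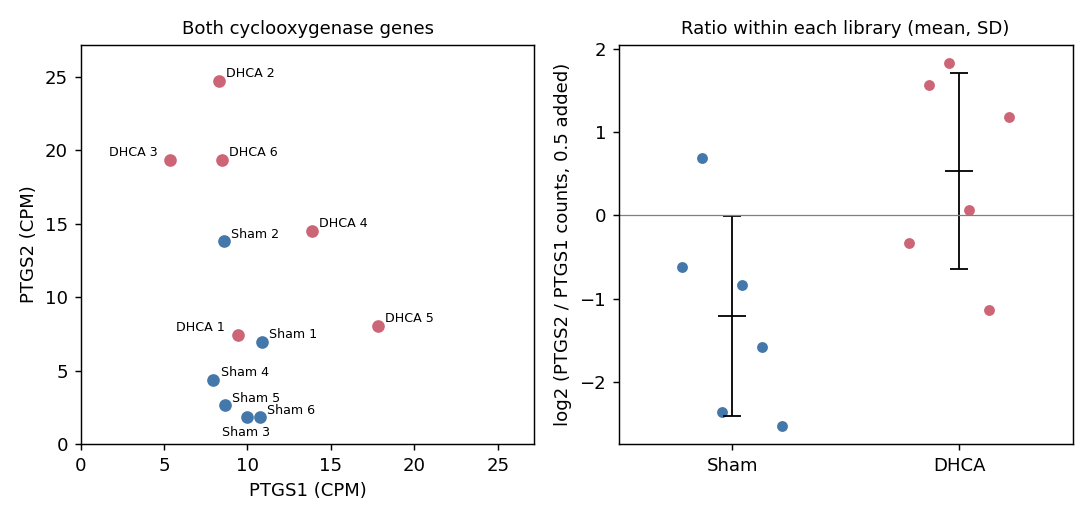
Left, PTGS2 against PTGS1 in CPM, 1 labelled point per library; right, the log2 ratio of their counts with the group mean and SD. Sham 2 is the sham library with a ratio above 1 (1.61), and DHCA 1 and DHCA 5 are the DHCA libraries below 1 (0.793 and 0.455).

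For the terminal synthases of prostaglandin E2 no difference between the groups was called. PTGES (ENSSSCG00000005688, chromosome 1, 269911793 to 269924481, minus strand) had a sham median of 1.65 CPM (0 to 2.00) and a DHCA median of 1.78 CPM (1.49 to 2.61). The 75 sham and 85 DHCA counts of PTGES gave a log2 fold change of 0.26 (SE 0.33, 95% interval -0.45 to 0.96, edgeR adjusted p = 0.874). A rise of PTGES by more than 1.95-fold lies outside that interval. PTGES2 (ENSSSCG00000022655, chromosome 1, 268581835 to 268590836, minus strand) had a sham median of 22.2 CPM (13.1 to 26.4) and a DHCA median of 18.0 CPM (10.3 to 20.9). Of the 6 sham values of PTGES2, 4 were above every DHCA value and Sham 2 and Sham 4 were among the DHCA libraries, with a log2 fold change of -0.22 (SE 0.22, adjusted p = 0.825). PTGES3 (ENSSSCG00000000406, chromosome 5, 22000340 to 22021662), outside the deposited names, had medians of 86.3 CPM in sham (44.6 to 115) and 83.9 CPM in DHCA (72.4 to 123). Its log2 fold change was 0.15 (SE 0.22, adjusted p = 0.868), and -0.090 without Sham 1, Sham 4 and Sham 5.

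The receptor genes had few reads, which limits what could be detected. PTGER4 (ENSSSCG00000024439, chromosome 16, 25670862 to 25686551, plus strand) ranged from 0.732 to 2.66 CPM in sham with a median of 1.80, and from 1.22 to 2.82 CPM in DHCA with a median of 1.93. Its log2 fold change was 0.32 (SE 0.35, 95% interval -0.43 to 1.07, edgeR adjusted p = 0.831), so a difference of up to 2.09-fold lies inside the interval from these 158 counts. PTGER3 (ENSSSCG00000003788, chromosome 6, 141959397 to 142159718, plus strand) had 59 sham and 61 DHCA counts in all. Its highest value, 3.98 CPM, was in Sham 4, the library with few spiny neuron markers, while sham was otherwise at 0.512 to 2.00 CPM and DHCA at 0.448 to 2.61 CPM. The part of the sampled region in this value was not tested. PTGER2 (ENSSSCG00000021862, chromosome 1, 181955298 to 182009953, plus strand) had 40 sham and 38 DHCA counts, with none in Sham 5 and none in DHCA 4. Those 0 counts allow up to 2.00 and 0.403 CPM (3 counts each). Fitted without a filter, PTGER3 had a log2 fold change of -0.10 (SE 0.52) and PTGER2 one of 0.11 (SE 0.65), with edgeR adjusted p of 0.975 and 0.981.

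PTGER1, the calcium-coupled receptor, had no count in any of the 12 libraries, and no level is given for it here. The exons of the 7 members share no bases with another gene in the table.

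**Figure D4:**
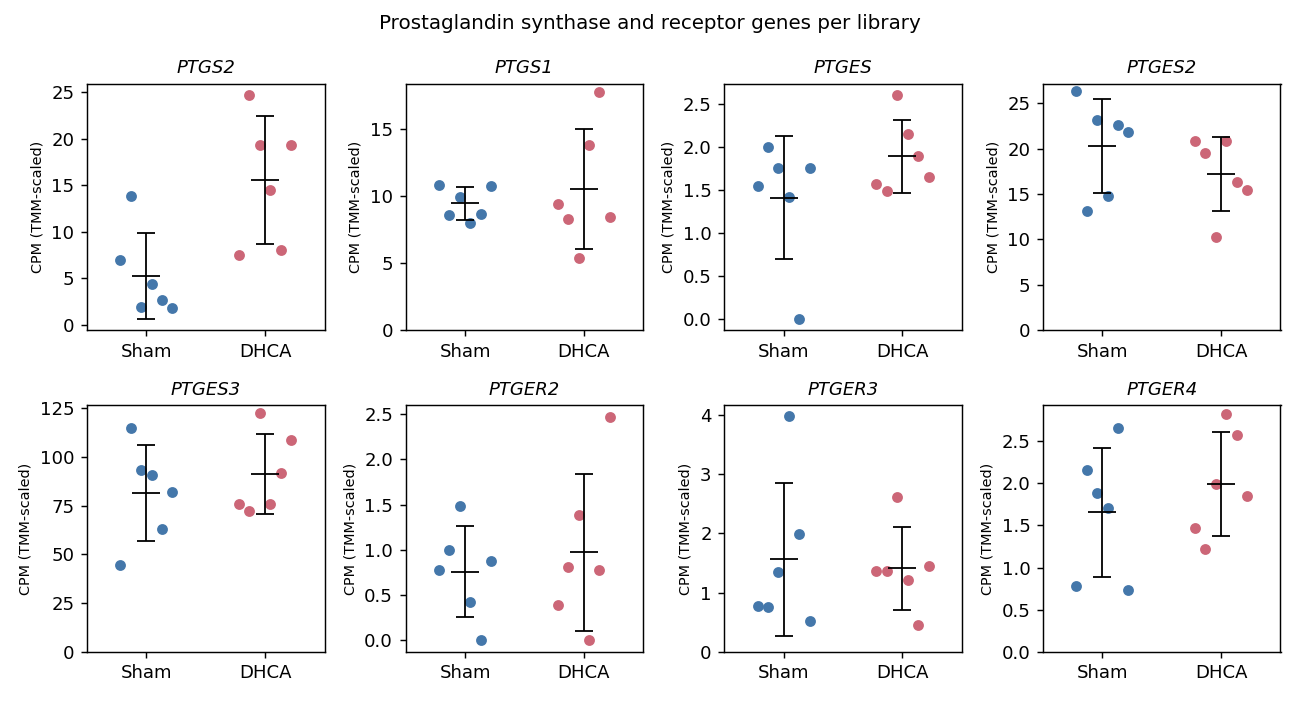
CPM of each gene in every library, with the group mean and SD (n = 6 per group). PTGS2 is at 1.83 to 13.8 CPM in sham and 7.45 to 24.7 CPM in DHCA; in the other 7 panels the ranges of the groups overlap as well.

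Of the wider pathway, 0 of 22 tested genes in 5 lists were called by edgeR. The lists cover phospholipases and lipases (7 tested, median log2 fold change 0.068), other terminal synthases (3 tested, -0.16), other prostanoid receptors with the receptor partner PTGFRN (3 tested, 0.29), transport and breakdown (5 tested, -0.093) and the lipoxygenase branch (4 tested, 0.16). The median of all tested genes was -0.0030. Of all tested genes 0.186% were called. At an unadjusted p under 0.05 the lists held 3 of 22, against 7.9% of all tested genes: ALOX5 on the higher side and SLCO2A1 and ALOX15 on the lower side. DESeq2 and limma-voom with sample quality weights called ALOX15 among the pathway genes named here. Over all genes these tools called 1.24% and 1.48%. PLA2G4A, the cytosolic phospholipase that supplies most arachidonic acid for signalling and is named after its values were seen, had a sham median of 6.64 and a DHCA median of 7.90 CPM (log2 fold change 0.28, SE 0.29). Among the phospholipases with the smallest p, PLA2G4E had a log2 fold change of -0.36 (SE 0.22) and PLA2G4B one of -0.28 (SE 0.23). Of the other synthases, AKR1B1, an aldo-keto reductase that can make prostaglandin F2α, had -0.16 (SE 0.14) and PRXL2B, a prostamide and prostaglandin F synthase, had -0.22 (SE 0.28). PTGFRN, which binds to the prostaglandin F receptor, had 0.29 (SE 0.25). The receptor gene itself, PTGFR, had 0.38 (SE 0.39), and 0.87 (SE 0.32, edgeR adjusted p = 0.541) without Sham 4, which held its highest value, 6.82 CPM.

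SLCO2A1 and ALOX15 were the pathway genes furthest towards lower values in DHCA. SLCO2A1, the transporter that takes prostaglandins up for breakdown, ranged from 10.7 to 21.3 CPM in sham with a median of 13.7, and from 6.25 to 12.2 CPM in DHCA with a median of 8.26. DHCA 6 was the DHCA library that reached into the sham range. The log2 fold change was -0.77 (SE 0.23, edgeR adjusted p = 0.296), and -0.54 (SE 0.22, adjusted p = 0.764) without Sham 1, Sham 4 and Sham 5. SLCO2A1 is also made by brain endothelium, and the 7 endothelial markers found in the table summed to 202 to 426 CPM in sham (median 288) and 229 to 263 CPM in DHCA (median 232), with Sham 1 and Sham 5 highest at 426 and 371 CPM. Of these 7 markers 5 had a negative log2 fold change, with a median of -0.53 and 0 called. The part of those markers in the SLCO2A1 value was not tested. In bulk tissue, fewer cells of a type and less RNA per cell cannot be told apart. PTGR3, a prostaglandin reductase, had 0.25 (SE 0.16).

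ALOX15, a lipoxygenase that competes for arachidonic acid, was at 16.3, 9.40, 10.8, 21.3, 18.0 and 10.8 CPM in Sham 1 to Sham 6. In DHCA 1 to DHCA 6 it was at 5.59, 6.11, 6.61, 6.72, 6.49 and 2.68 CPM. All DHCA libraries were below all sham libraries. The edgeR fit gave a log2 fold change of -1.30 (SE 0.27, adjusted p = 0.0704), which was not called. It was called without Sham 2 (-1.41, adjusted p = 0.0483), by DESeq2 (adjusted p = 0.00106) and by limma-voom with sample weights (adjusted p = 0.0193). The authors' deposited table gives -1.31 (adjusted p = 0.00446). As for PTGS2, that deposited value cannot be read as a test on these 12 libraries alone. The 3 highest sham values were in Sham 1, Sham 4 and Sham 5, and without these libraries the log2 fold change was -0.84 (SE 0.25, adjusted p = 0.476). Markers of leptomeninges and fibroblasts, 8 genes, were also highest in Sham 1, Sham 4 and Sham 5, at 456, 418 and 375 CPM in sum, with a sham median of 355 and a DHCA median of 222 CPM. All 7 tested genes of that list had a negative log2 fold change, with a median of -0.57 and 1 called. The part of these markers in the ALOX15 value was not tested. ALOX5, which starts leukotriene synthesis, had median levels of 6.18 (sham) and 9.64 CPM (DHCA; log2 fold change 0.63, SE 0.25, adjusted p = 0.532).

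**Figure D5:**
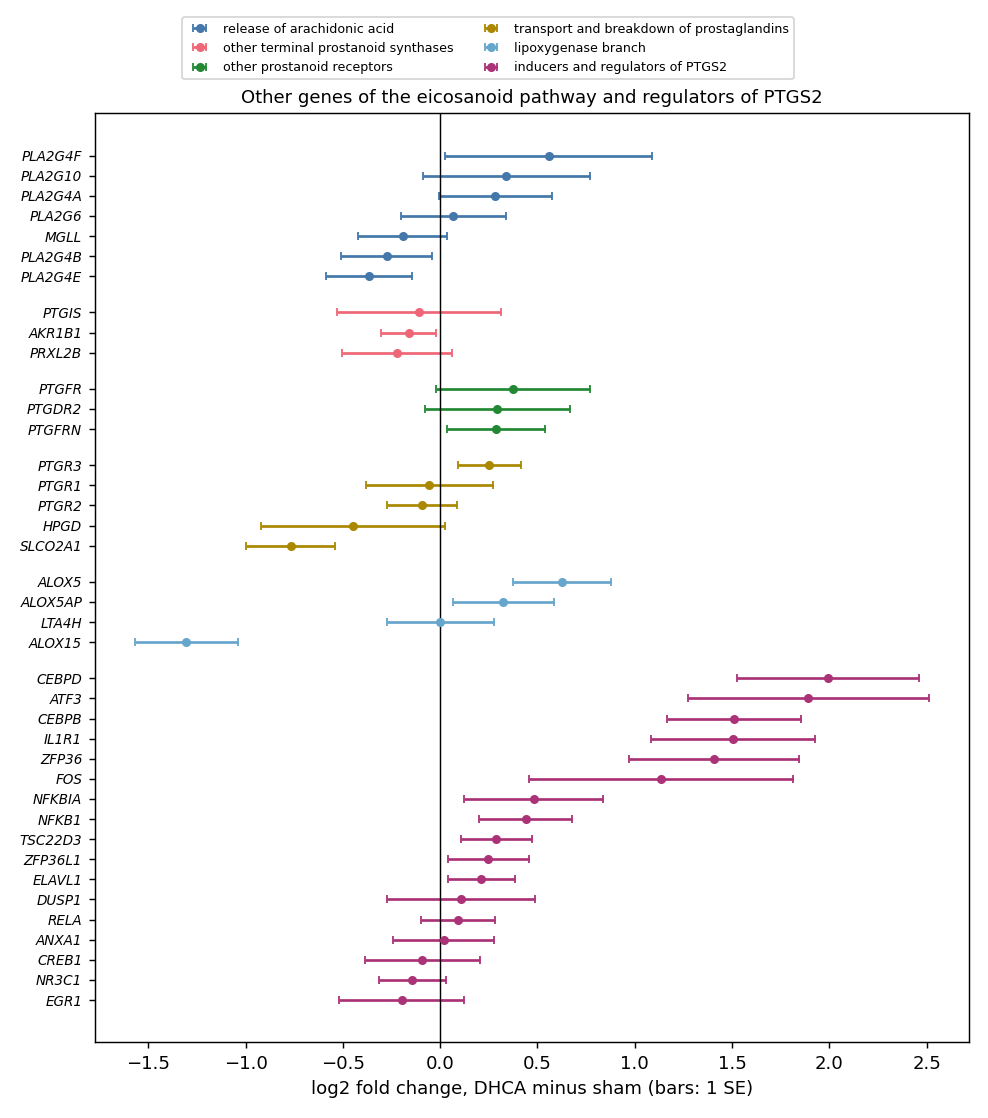
Log2 fold change (DHCA minus sham, bars 1 SE) of the tested genes of 5 pathway lists and of regulators of PTGS2, coloured by list. ALOX15 (-1.30) and SLCO2A1 (-0.77) lie furthest left, and CEBPD (1.99), ATF3 (1.89) and CEBPB (1.51) furthest right; edgeR called none of them.

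Genes that induce or restrain PTGS2 had a median log2 fold change of 0.29, with 14 of 17 tested genes positive and 0 called by edgeR, against 6935 of 14004 tested genes positive and 0.186% called. At an unadjusted p under 0.05 there were 5 of the 17, all higher in DHCA, and 7.9% of all tested genes. CEBPB and CEBPD encode factors that bind the PTGS2 promoter. CEBPB had a sham mean of 7.05 ± 3.20 CPM and a DHCA mean of 19.6 ± 9.88 CPM (SD, log2 fold change 1.51, SE 0.34, edgeR adjusted p = 0.131), and it was called without Sham 1 (1.74, adjusted p = 0.0490). CEBPD was at 1.21 to 8.32 CPM in sham and 10.4 to 39.9 CPM in DHCA, with no overlap (log2 fold change 1.99, SE 0.47, adjusted p = 0.140). Both were called by DESeq2 (adjusted p = 0.00464 and 0.00496) and by limma-voom with sample weights (0.0164 and 0.0169). Over all genes these tools called 1.24% and 1.48%. The authors' deposited table gives an adjusted p of 0.000346 for CEBPB and 2.01e-05 for CEBPD. As for PTGS2, these deposited values cannot be read as tests on these 12 libraries alone. IL1R1, the receptor of the inducer interleukin 1, had 1.51 (SE 0.42, edgeR adjusted p = 0.244) and was called by DESeq2 (0.0307) and limma-voom (0.00233). It was at 7.75 CPM in Sham 1, inside the DHCA range of 5.43 to 9.14 CPM, while Sham 2 to Sham 6 were at 0.666 to 2.56 CPM. Without Sham 1 edgeR called IL1R1 (2.01, adjusted p = 0.0163). ZFP36, which encodes a protein that destabilises PTGS2 messenger RNA, had 1.41 (SE 0.44, adjusted p = 0.334). Without Sham 1, Sham 4 and Sham 5 the log2 fold changes were 1.73 for CEBPB, 2.04 for CEBPD, 2.10 for IL1R1 and 1.75 for ZFP36, with edgeR adjusted p of 0.304, 0.502, 0.0539 and 0.449.

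DHCA 4 had the highest CEBPB, CEBPD and ZFP36 of all libraries, 37.2, 39.9 and 112 CPM, and its PTGS2 level was the third lowest of DHCA. DHCA 2 had the second highest values of these genes, 23.6, 30.0 and 91.3 CPM, and the highest PTGS2, 24.7 CPM. TNF and IL6, which encode cytokine inducers, did not pass the filter, at 0 to 1.94 CPM and 0 to 2.71 CPM over all libraries, both highest in Sham 1. IL1B and IL1RN were not matched by name and are not analysed here.

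Cell type markers were set beside PTGS2, which neurons, endothelium and myeloid cells can make. Microglial markers (7 of 8 found) summed to 179 to 349 CPM in sham and 167 to 273 CPM in DHCA. Markers of blood myeloid cells (6 of 7 found) summed to 2.00 to 9.31 CPM in sham and 6.60 to 10.9 CPM in DHCA, with median sums of 5.67 and 7.24 CPM. Sham 2, the sham library with the highest PTGS2, was at 240 CPM for microglial and 5.91 CPM for myeloid markers, inside the sham range of both. Markers of spiny projection neurons had median sums of 3868 CPM in sham and 3689 CPM in DHCA. For cortical and other glutamatergic neurons these were 52.0 and 33.6 CPM, and all 5 tested genes had a negative log2 fold change. Sham 2 was at 2857 CPM for spiny neuron markers and at 33.3 CPM for glutamatergic markers, the lowest sham value of the latter. The endothelial and leptomeningeal lists, given above, had lower median sums in DHCA. Red cell markers summed to 33.0 to 241 CPM in sham and 26.3 to 65.9 CPM in DHCA. The part of these cell types in the PTGS2 values was not tested.

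After each group's mean was taken out, the genes whose log2 CPM followed PTGS2 most closely over the 12 libraries were CD83, FBN2, GADD45A, TNFAIP3 and PEX7, out of 12735 genes compared. CD83, a surface protein of activated immune cells, had a Pearson r of 0.88 (Spearman 0.80), and 0.84 without Sham 2 and Sham 6, where centred PTGS2 lay farthest from its median. FBN2, a fibrillin of the extracellular matrix, had 0.87 (Spearman 0.90). The stress gene GADD45A had 0.85, TNFAIP3, an inhibitor of nuclear factor kappa B, had 0.84, and PEX7, a peroxisomal import receptor, had 0.84. Without that centring, r was 0.81 for CD83, 0.88 for GADD45A and 0.79 for TNFAIP3, but -0.060 for FBN2 and 0.25 for PEX7. In Sham 2 CD83 and TNFAIP3 were at 27.1 and 35.6 CPM, their highest values in any library, and in Sham 6 at 8.64 and 9.66 CPM. TNFAIP3 was nearly as high in Sham 1, at 35.3 CPM, where PTGS2 was at 6.98 CPM. Likewise CD83 was at 25.3 CPM in Sham 4, where PTGS2 was at 4.41 CPM. These values are descriptions of the same libraries, taken as the highest of many, and carry no test.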

How the data were processed

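The authors counted reads per Ensembl gene with featureCounts 1.5.1 over exons of Sscrofa11.1, per the file headers, and deposited raw counts. No strand option is set. No source used here names the aligner. Of 18 columns of libraries in the table, 12 matched a sample by name and the other 6 were used in no step. The authors' deposited table holds a mean normalized signal, log2 fold changes with standard errors, a test statistic (a score), p-values and adjusted p-values. The submitters' processing notes name DESeq2. Deposited fold changes were taken as DHCA over sham: across 14004 genes their r with the values computed here was 0.967, although the deposited statistic has the opposite sign in all 21223 rows.

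In R 4.3.3, filterByExpr of edgeR 4.0.16 removed genes of low count; the rest were scaled by TMM and tested with the quasi-likelihood F test (robust), group as the only term and Benjamini-Hochberg adjustment over all 14004 tested genes at a threshold of 0.05. Standard errors came from the F statistic, and fold changes are DHCA minus sham. Log2 CPM used a prior count of 2. Alternatives were other scaling factors, DESeq2 1.42.0, limma-voom 3.58.1 with sample quality weights, other filters, a replicate block and leaving out libraries. With 6 piglets in each group by the series design, p-values measure the spread between animals. On simulated data of this DHCA and sham comparison with 200 of 14004 genes changed, edgeR tested 13873. It found 36% of the 2-fold and 92% of the 4-fold changes, with 4 false calls. The changed genes were drawn at random, and no simulated library deviated in tissue. These rates are averages and need not hold for PTGS2 or the receptor genes. A level of 1 CPM corresponds to 1.50 counts in Sham 5 and 13.7 in Sham 6. The chi-square per degree of freedom within groups was at least 8.50, so no library looked deposited more than once.

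Members and gene lists were chosen with earlier results of these data known. Named genes are all members, 2 genes per pathway list with the smallest p (4 for regulators of PTGS2) and the 5 most like PTGS2; PLA2G4A, TNF, IL6 and ATF3 were added after their values were seen. Of the pathway lists, 52 of 60 genes were matched by name. No sequence is printed. A further result is not reported here.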

Additional observations from a re-analysis of the deposited data

Results flagged for a closer look

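PTGES was at 0 CPM in Sham 5, and the gap to the next sham value, 1.42 CPM, was 0.712 of the sham range, above Dixon's 95% critical value for 6 samples. Sham 5 is the shallowest library, where a count of 0 allows up to 2.00 CPM (3 counts), above the sham median of 1.65 CPM. In all, 16 groups of values were examined, and chance marks about 1 in 20.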

How the results depend on the processing

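PTGS2 kept a positive fold change in all 21 alternatives (log2 1.30 to 2.25) and was called only by limma-voom with sample quality weights (2.25, adjusted p = 0.0232; range of adjusted p 0.0232 to 0.950). The count of genes called, 26, was 181 with DESeq2, 207 with limma-voom, 9 to 51 without single libraries, 12 without Sham 1 and Sham 5, and 1 without Sham 1, Sham 4 and Sham 5; the last pair of settings was added after seeing the data. The cause of these differences was not tested. The ratio of PTGS2 to PTGS1 gave log2 differences of 1.48 to 2.12 without single libraries, 1.79 without Sham 1 and Sham 5 (exact permutation p = 0.0714) and 1.93 without Sham 1, Sham 4 and Sham 5. With a replicate block by the numbers in the titles edgeR called 8 genes, with CEBPD newly among them (2.10, adjusted p = 0.0465). PTGS2 was then at 1.82 (edgeR adjusted p = 0.354). Same-numbered libraries deviated together in 2 of 6 pairs (correlations -0.39 to 0.34), none matching its own number best. The labels do not state that the numbers pair animals, and these correlations cannot exclude it. PTGS1 ranged from -0.066 (without DHCA 5) to 0.28 without single libraries. PTGES3 turned to -0.054 with limma-voom, -0.064 without Sham 1 and Sham 5 and -0.090 without Sham 1, Sham 4 and Sham 5, and PRXL2B to 0.042 with limma-voom and 0.11 without these 3. Without division by length PTGS2 was in place 4 of the sham order, not 5. The shallow libraries Sham 1 and Sham 5 limit what the receptor genes can show.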
